A study of Mus musculus with 6 samples.

Results

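The insulin-like growth factor axis was followed in cultured mouse retinal ganglion cells (RGCs), the neurons whose axons form the optic nerve, as 10 genes chosen by symbol: the ligands *Igf1* and *Igf2*, the receptors *Igf1r*, *Insr* and *Igf2r*, the binding proteins *Igfbp2*, *Igfbp3*, *Igfbp4* and *Igfbp5*, and the long noncoding RNA *H19*. All 10 were found among the 43346 Ensembl genes of the deposited tables. RGCs of C57BL/6 mice were immunopanned for CD90.1, cultured with forskolin, BDNF and CNTF, and transduced with a control EGFP adeno-associated virus (AAV), an AAV for Sox11 with IRES-EGFP, or an AAV for Sox11 K91A with IRES-EGFP, in which a lysine that can carry SUMO is replaced by alanine. Each of the 3 groups had 2 libraries, and all 6 cultures carried an AAV and EGFP. RNA was taken 72 h after plating, and the age of the cells is given as embryonic day 18 or postnatal day 2, and the names of the deposited tables point to postnatal day 0. Cells came from male and female mice, the promoter of the vectors is not given in the sources used here, and the labels speak of 3 RNA samples in duplicate, so that p-values measure only the spread between these libraries, part of which may be technical. In control and Sox11 the replicates also differed in *Xist* and Y-linked genes, as given below. The choice was made with earlier results of these libraries in view, and *H19* was included because its level differed between replicates, so *H19* is described without a test.

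IGF1 and IGF2 are secreted growth factors that act through the receptor tyrosine kinases IGF1R and INSR and from there on the PI3K, AKT and mTOR pathway, which supports neuron survival and axon growth. IGF2R has no kinase and carries IGF2 and lysosomal enzymes to lysosomes, and the IGF binding proteins hold the ligands outside the cell and set how much of them reaches a receptor. *Igf2* and *H19* are neighbouring imprinted genes, the former expressed from the paternal and the latter from the maternal chromosome, which share enhancers. *H19* is also the host transcript of the microRNA miR-675.

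The sequences of miR-675 and of 3 promoters are given first. On GRCm38, *H19* lies on the minus strand at chr7:142575529-142578143, *Igf2* on the same strand at chr7:142650766-142666816, and the miR-675 hairpin inside *H19* at chr7:142577064-142577147. The mature forms, from RefSeq (GRCm38.p6), follow because they are the small RNA products of this transcript, with the seed (bases 2 to 8) in capitals. They lie at chr7:142577078-142577099 and chr7:142577112-142577133.
miR-675-3p: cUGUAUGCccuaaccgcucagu
miR-675-5p: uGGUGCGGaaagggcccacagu
The hairpin had 0 counts in all 6 libraries, while its host transcript held between 1259 and 42209 expected counts. The short genes *Mir483*, inside *Igf2*, and *Gm27483* and *Gm27786*, inside *H19*, were also at 0. No small RNA library is described, and reads of the hairpin may have been counted for *H19*. Whether miR-675 is made in these cells was therefore not tested.

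The 250 bases before the start site of *Igf1* (chr10:87860861-87861110), *Igf1r* (chr7:67952007-67952256) and *Igfbp2* (chr1:72824230-72824479) are printed because these were the members that passed the test against control. All 3 genes lie on the plus strand, and the starts are those of RefSeq on GRCm38.p6. The *Igf1* start lies inside the span of the gene in GENCODE M21 (chr10:87858265-87937042), and the other starts lie before it. Capitals mark ACAAAG or ACAATG on either strand, which are among the core letters that SOX proteins are known to bind. Other forms of the core, such as TCAAAG, were not searched or marked.
*Igf1*: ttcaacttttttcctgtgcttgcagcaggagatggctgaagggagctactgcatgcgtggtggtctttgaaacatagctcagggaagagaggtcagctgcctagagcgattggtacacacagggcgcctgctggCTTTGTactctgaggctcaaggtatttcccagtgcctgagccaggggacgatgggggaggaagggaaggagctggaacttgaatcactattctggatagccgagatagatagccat
*Igf1r*: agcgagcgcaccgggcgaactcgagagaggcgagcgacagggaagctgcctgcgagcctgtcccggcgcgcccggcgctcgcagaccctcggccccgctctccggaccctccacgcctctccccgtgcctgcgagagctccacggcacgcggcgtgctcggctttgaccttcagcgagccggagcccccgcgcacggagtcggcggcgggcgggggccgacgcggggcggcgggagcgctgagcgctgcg
*Igfbp2*: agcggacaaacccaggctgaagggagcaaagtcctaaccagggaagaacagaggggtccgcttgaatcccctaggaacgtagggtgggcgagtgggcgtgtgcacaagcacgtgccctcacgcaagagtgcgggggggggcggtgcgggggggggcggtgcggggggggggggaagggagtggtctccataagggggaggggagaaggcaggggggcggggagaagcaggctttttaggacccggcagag
*Igf1* held ACAAAG on the minus strand, 116 bases before the start, and the windows of *Igf1r* and *Igfbp2* held neither. Of the 12 starts in the table for 8 members, 2 held a match, the other at an *Igf2* start. Of 32851 mouse starts searched the same way, 25.2% held either motif, 16.5% ACAAAG and 10.7% ACAATG. The match is thus a description of the letters, and binding was not tested.

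The libraries held between 27521982 and 37061718 expected counts. *Sox11* stood at 234 and 332 CPM (read counts scaled by library size and TMM factor) in control, at 9178 and 14590 CPM with Sox11, and at 11970 and 7026 CPM with Sox11 K91A. All 10 RGC markers were expressed, with a summed level between 6223 and 11690 CPM, lowest in Sox11 replicate 2. *Gfap*, *Tyrobp*, *Rcvrn* and *Ttr* were at 0 in all libraries, and the summed markers of fibroblasts, pericytes, endothelium, microglia, photoreceptors, pigment epithelium, erythroid cells and progenitors each stayed under 22 CPM. The summed markers of Müller glia and astrocytes, amacrine, bipolar and horizontal cells were above this in every library and are given below. Control replicate 2 and Sox11 replicate 2 stood apart from the other libraries. Their *Xist* level was 95.9 and 254 CPM against 400 to 526 CPM in the others. *Kdm5d* was at 12.8 CPM in control replicate 2, only just above the 12.7 CPM of Sox11 K91A replicate 1. It and *Ddx3y*, *Eif2s3y* and *Uty* were each higher in the 2 libraries with low *Xist* than in the other 4. Called results and the main values of members are given below with and without them, and the latter leaves 1 library each for control and Sox11, which are then assumed to vary like the Sox11 K91A libraries. In bulk RNA, fewer cells of a type and less RNA per cell cannot be told apart.

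**Figure D1:**
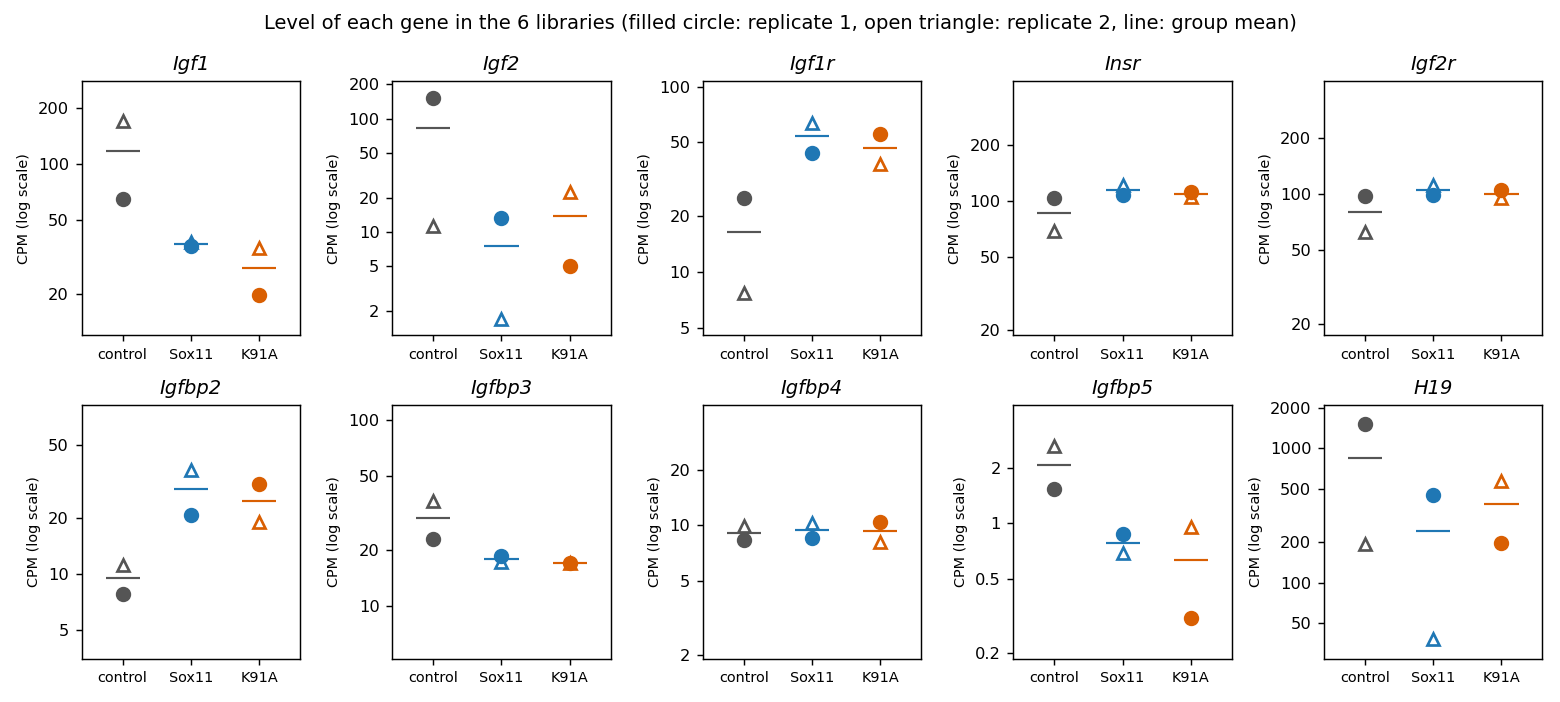
CPM on a log axis for each of the 10 genes in the 6 libraries, with filled circles for replicate 1, open triangles for replicate 2 and a line at the group mean of 2 libraries. *Igf1r* and *Igfbp2* lie higher in all 4 libraries with a Sox11 virus than in control, *Igf1*, *Igfbp3* and *Igfbp5* lie lower, and *Igf2* and *H19* spread widely within each group.

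*Igf1* was called lower with Sox11 K91A, and *Igf1r* and *Igfbp2* were called higher with Sox11. These were the calls among the 9 members tested against control by limma-voom, where a call needs an adjusted p under 0.05 and a change of more than 1.2-fold. With Sox11, 2 of 9 members were called, both higher, which is 22.2% beside 20.1% of all 15747 genes tested (9.96% higher and 10.2% lower). With Sox11 K91A, 1 of 9 was called, which is 11.1% beside 10.6% of all genes (5.81% higher and 4.81% lower). Both shares were near that of all genes. The 2 comparisons share the control libraries. Each called gene moved the same way with the other virus without passing. The log2 fold change was -1.50 for *Igf1* with Sox11, and 1.82 for *Igf1r* and 1.35 for *Igfbp2* with Sox11 K91A. No member was called between the viruses, so these calls do not set one virus apart from the other.

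**Figure D2:**
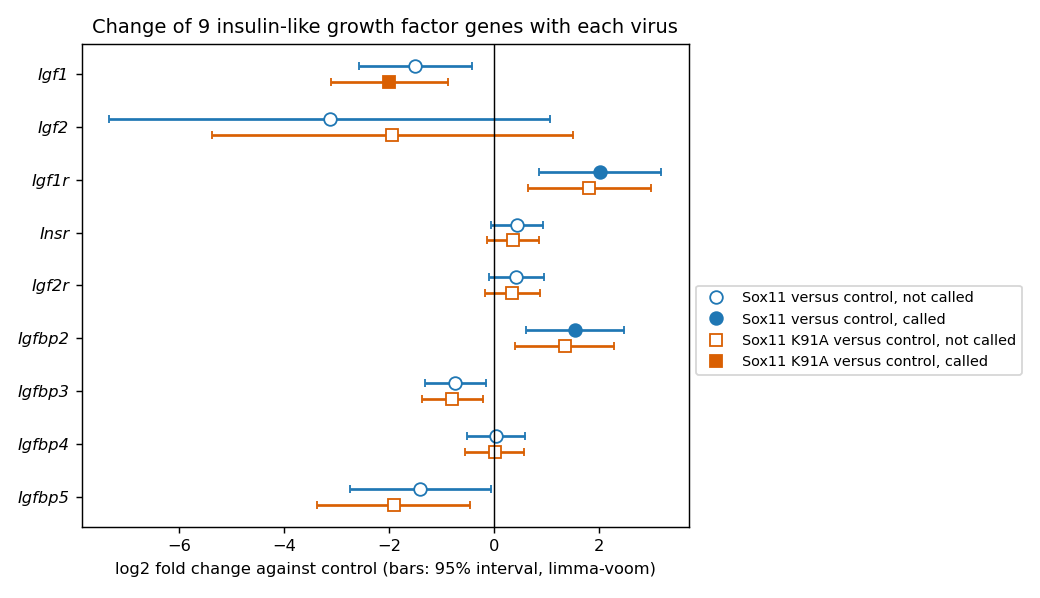
log2 fold change against control for 9 genes, with 95% intervals from limma-voom on 6 libraries. Circles stand for Sox11, squares for Sox11 K91A, and filled symbols for called genes. *Igf1r* and *Igfbp2* with Sox11 and *Igf1* with Sox11 K91A are filled, and the intervals of *Igf2* are the widest of the 9.

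Among the ligands, *Igf1* was at 65.0 and 170 CPM in control, at 36.4 and 37.8 CPM with Sox11, and at 19.7 and 35.4 CPM with Sox11 K91A. Both control libraries were above all 4 libraries with a Sox11 virus. *Igf1* was 3.98-fold lower with Sox11 K91A than in control (log2 fold change -1.99 ± 0.47 (SE), 95% interval -3.11 to -0.88, adjusted p = 0.0434, limma-voom, n = 2 libraries a group). With Sox11, its log2 fold change was -1.50 ± 0.45 and the adjusted p of 0.0588 did not pass. Without the pair of low-*Xist* libraries, the log2 fold change of *Igf1* was -1.31 with Sox11 K91A (adjusted p = 0.0369) and -0.84 with Sox11 (adjusted p = 0.169). The Sox11 K91A call rests on few libraries. It was lost without either Sox11 K91A library (log2 fold change -1.56 without replicate 1, adjusted p = 0.310, and -2.41 without replicate 2, adjusted p = 0.0839), and without control replicate 2 it was -1.32 (adjusted p = 0.0733). It was also lost without either Sox11 library and in the fit of the 2 groups alone, where it was -1.99 (adjusted p = 0.0614 to 0.0615). The antisense gene *Igf1os* held at most 15 counts in any library.

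*Igf2*, a fetal growth factor, was at 153 CPM in control replicate 1 and at 11.3 CPM in control replicate 2. It was at 13.3 and 1.72 CPM with Sox11 and at 5.00 and 22.4 CPM with Sox11 K91A. Control replicate 2 lay within the range of the libraries with a Sox11 virus, so the groups overlapped. The log2 fold change was -3.13 ± 1.77 with Sox11 (95% interval -7.33 to 1.06, adjusted p = 0.241) and -1.93 ± 1.45 with Sox11 K91A (95% interval -5.37 to 1.50, adjusted p = 0.417). Where the low-*Xist* libraries had a term of their own in the fit, *Igf2* was called with both viruses, at -3.34 with Sox11 (adjusted p = 0.0121) and -3.82 with Sox11 K91A (adjusted p = 0.0161). These were also the libraries with less *Igf2* in control and in Sox11. The term thus takes up the spread between those replicates, and these calls are not separate support for a change. Without the low-*Xist* libraries the log2 fold changes were -3.52 and -3.90, with control replicate 1 as the only control. The antisense gene *Igf2os* overlaps *Igf2* and held 270, 25, 94, 0, 46 and 210 counts in control, Sox11 and Sox11 K91A libraries in turn. The use of strand in counting is not given in the sources used here, so reads of *Igf2* and *Igf2os* may not have been told apart. At 57 to 4276 counts, *Igf2* was above *Igf2os* in each library.

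Among the receptors, *Igf1r*, the kinase receptor for IGF1 and IGF2, was at 25.1 and 7.65 CPM in control. It was at 43.9 and 63.8 CPM with Sox11 and at 55.3 and 38.3 CPM with Sox11 K91A. All 4 libraries with a Sox11 virus were above both control libraries. *Igf1r* rose 4.07-fold with Sox11 (log2 fold change 2.02 ± 0.49 (SE), 95% interval 0.86 to 3.19, adjusted p = 0.0330, limma-voom, n = 2). For Sox11 K91A the value was 1.82 ± 0.49 and the adjusted p of 0.0598 did not pass. Its size rests on control replicate 2. Without that library the log2 fold change with Sox11 was 1.08 (adjusted p = 0.0904), and without both low-*Xist* libraries it was 0.81 (adjusted p = 0.130). Without Sox11 replicate 2 it was 1.74 (adjusted p = 0.188).

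*Insr*, the insulin receptor, was at 103 and 68.6 CPM in control, at 107 and 122 CPM with Sox11, and at 112 and 104 CPM with Sox11 K91A. *Igf2r*, the clearance receptor, was at 97.9 and 62.7 CPM in control, at 98.7 and 113 CPM with Sox11, and at 105 and 95.6 CPM with Sox11 K91A. For both genes, control replicate 2 was the low library, and control replicate 1 was close to the libraries with a Sox11 virus. The log2 fold changes with Sox11 were 0.44 for *Insr* (95% interval -0.05 to 0.93, adjusted p = 0.168) and 0.43 for *Igf2r* (95% interval -0.10 to 0.95, adjusted p = 0.203). With Sox11 K91A they were 0.36 for *Insr* (adjusted p = 0.286) and 0.35 for *Igf2r* (adjusted p = 0.328). Without the low-*Xist* libraries, the Sox11 values were 0.06 for *Insr* and 0.01 for *Igf2r*. *Airn*, the noncoding RNA that runs antisense through part of *Igf2r* and silences it in cis on the paternal chromosome in many tissues, held 36 and 67 counts in control and at most 7 in the other libraries. *Airn* fell 11.8-fold with Sox11 (adjusted p = 0.0212) and 9.32-fold with Sox11 K91A (adjusted p = 0.0326), and the Sox11 call was lost without the low-*Xist* libraries (adjusted p = 0.0809). The counts of *Igf2r*, between 2417 and 3733, were far above it.

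Levels of the kinase receptors were also compared per length, in TPM, which is scaled by transcript length as well as by library. The ratio of *Igf1r* to *Insr* was 0.522 and 0.240 in control, 0.873 and 1.12 with Sox11, and 1.06 and 0.787 with Sox11 K91A. *Igf1r* was thus below *Insr* in both control libraries and near it in the others, with no overlap between control and either virus.

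Among the binding proteins, *Igfbp2* was at 7.84 and 11.2 CPM in control, at 20.9 and 36.6 CPM with Sox11, and at 30.7 and 19.1 CPM with Sox11 K91A. The groups did not overlap with control. *Igfbp2* rose 2.92-fold with Sox11 (log2 fold change 1.55 ± 0.39 (SE), 95% interval 0.62 to 2.47, adjusted p = 0.0366, limma-voom, n = 2). For Sox11 K91A the value was 1.35 ± 0.40 and the adjusted p of 0.0721 did not pass. Without the low-*Xist* libraries the log2 fold change was 1.41 with Sox11 (adjusted p = 0.100) and 1.63 with Sox11 K91A (adjusted p = 0.0424), so its size held while the virus that passed the test changed. The Sox11 call was also lost without Sox11 replicate 2 (log2 fold change 1.13, adjusted p = 0.183), control replicate 1 (1.32, adjusted p = 0.103) or control replicate 2 (1.84, adjusted p = 0.0951).

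*Igfbp3*, the main IGF carrier of blood, was at 23.0 and 36.8 CPM in control, at 18.5 and 17.1 CPM with Sox11, and at 17.1 and 17.0 CPM with Sox11 K91A. Both control libraries were the highest. Its log2 fold changes were -0.74 with Sox11 (95% interval -1.32 to -0.15, adjusted p = 0.0746) and -0.79 with Sox11 K91A (95% interval -1.38 to -0.20, adjusted p = 0.0842), and neither passed. Without the low-*Xist* libraries they were -0.31 (adjusted p = 0.243) and -0.43 (adjusted p = 0.0796). *Igfbp5* was the lowest member, with 43 and 101 counts in control, 24 and 23 with Sox11, and 10 and 28 with Sox11 K91A. Its log2 fold changes of -1.4 (adjusted p = 0.121) and -1.91 (adjusted p = 0.0905) had 95% intervals that reached -0.05 and -0.45. Without the low-*Xist* libraries they were -0.80 (adjusted p = 0.495) and -1.49 (adjusted p = 0.154). *Igfbp4* overlapped between all groups, at 8.16 to 10.5 CPM over the 6 libraries. Its log2 fold changes were 0.04 with Sox11 (95% interval -0.52 to 0.60) and 0.01 with Sox11 K91A (95% interval -0.54 to 0.57).

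Taking the 9 members by library, 7 had no overlap between Sox11 and control, 4 of them higher and 3 lower, beside 61.5% of all genes tested with no overlap. Between Sox11 K91A and control, 6 had no overlap, 3 higher and 3 lower, beside 61.9% of all genes. Between Sox11 K91A and Sox11, *Igf1* and *Igfbp3* had no overlap, both lower, beside 26.6% of all genes.

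Set directly against Sox11, Sox11 K91A gave 0 calls among the 9 members and 0% of all genes, with 108 of 15747 genes at an unadjusted p under 0.05 and 2 genes called by DESeq2. The adjusted p of each member was 0.9999 in limma-voom. The intervals were narrow for some members and wide for others. The log2 difference was -0.08 for *Insr* (95% interval -0.57 to 0.41), -0.08 for *Igf2r* (-0.60 to 0.45), -0.02 for *Igfbp4* (-0.59 to 0.54) and -0.06 for *Igfbp3* (-0.68 to 0.57). It was -0.20 for *Igf1r* (-1.21 to 0.80), -0.20 for *Igfbp2* (-0.99 to 0.59) and -0.50 for *Igf1* (-1.64 to 0.65). For *Igf2* it was 1.2 with an interval from -3.47 to 5.87, so no difference of either direction was resolved at this number of libraries.

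*H19* had the highest TPM of the 10 members in 5 of the 6 libraries. In Sox11 replicate 2 it was at 37.2 TPM, under *Igfbp2* at 68.6 TPM. In CPM, *H19* was at 1510 CPM in control replicate 1 and 193 CPM in replicate 2. With Sox11 it was at 449 CPM in replicate 1 and 38.0 CPM in replicate 2, and with Sox11 K91A at 198 CPM and 571 CPM. The replicates thus differed 7.81-fold in control, 11.8-fold with Sox11 and 2.88-fold with Sox11 K91A. The groups overlapped, with means of 852 ± 931, 244 ± 291 and 385 ± 264 CPM (SD, n = 2). At 1259 counts or more per library, counting error was far smaller than these differences.

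Set beside the other genes, the absolute log2 difference of *H19* between replicates was 2.97 in control, 3.56 with Sox11 and 1.53 with Sox11 K91A, above that of 98.9%, 98.6% and 97.6% of the genes tested. The median over all genes was 0.34, 0.26 and 0.16. *Igf2* differed as much, by 3.75, 2.94 and 2.16, above 99.5%, 97.9% and 98.9% of genes. Replicate 1 was the higher library for both genes in control and Sox11, and replicate 2 with Sox11 K91A. *Igfbp5* with Sox11 K91A (1.58, above 97.8% of genes) and *Igf1r* (1.71, 95.7%) and *Igf1* (1.39, 93.2%) in control also had wide differences, while *Igf1* with Sox11 differed by 0.06.

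**Figure D3:**
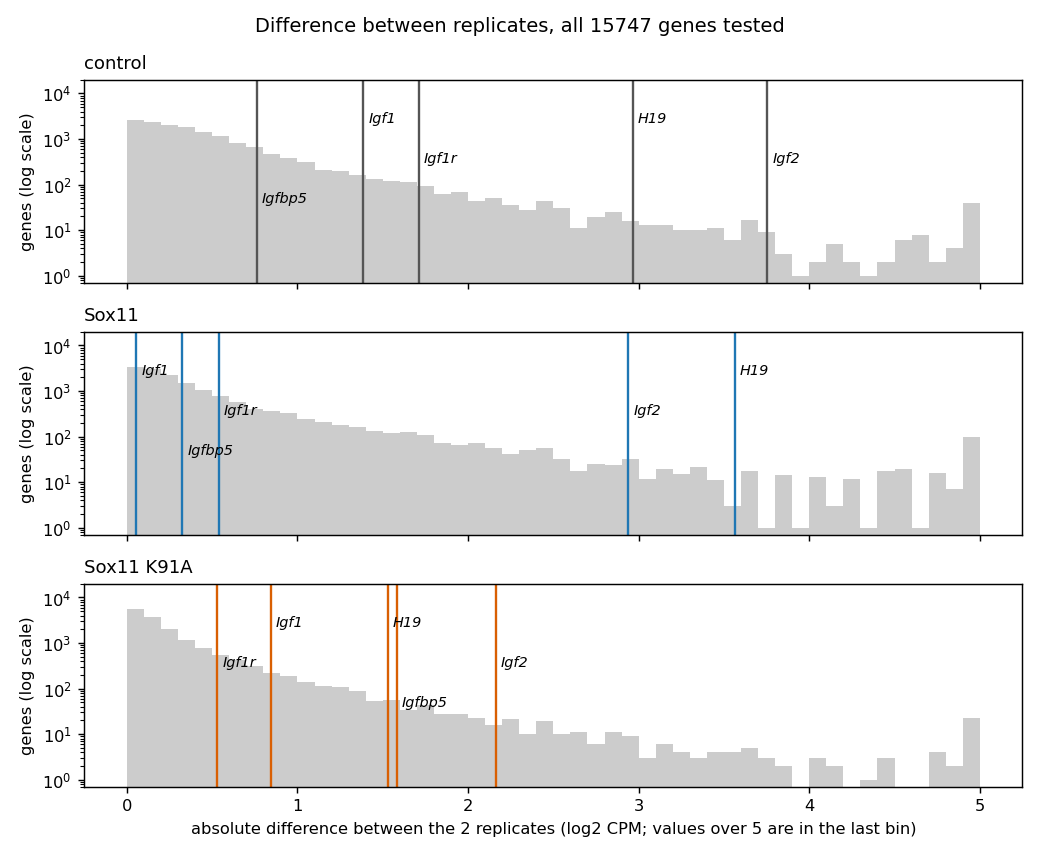
Histogram of the absolute difference between the 2 replicates of each group in log2 CPM over the genes tested, with the count of genes on a log axis and lines at 5 members. In all 3 groups the lines of *H19* and *Igf2* lie in the right tail, at 1.53 or more, against medians of 0.16 to 0.34.

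The log2 fold change of *H19* against control was -2.05 with Sox11 and -0.70 with Sox11 K91A, and it was 1.36 for Sox11 K91A against Sox11. These values moved with the libraries included. Without the low-*Xist* libraries they were -1.75, -2.17 and -0.42. Without control replicate 1 the value for Sox11 K91A was 0.80, above control, and without Sox11 replicate 2 the value for Sox11 was -0.28. Over all 16 alternatives, the value for Sox11 against control stayed below 0 (-3.84 to -0.28). The values for Sox11 K91A changed sign, both against control (-2.32 to 0.80) and against Sox11 (-0.42 to 3.15).

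The ratio of *H19* to *Igf2* in TPM was 8.46 and 15.4 in control, 28.6 and 16.9 with Sox11, and 44.3 and 24.4 with Sox11 K91A. *H19* was thus above *Igf2* in every library, and the ratio was higher in each library with a Sox11 virus than in either control library. The gap was small, from 15.4 in control replicate 2 to 16.9 in Sox11 replicate 2, where *Igf2* held 57 counts. The ratio was not tested.

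The 5 genes whose pattern over the 6 libraries was nearest to that of *H19*, by the root mean square difference of log2 CPM centred on each gene's mean among 13377 genes with a mean of at least 1 CPM, were *Grin2a* (0.40), *Th* (0.46), *Rasgrp1* (0.49), *Gm16334* (0.50) and *Calb1* (0.50). *Igf2* ranked 24, at 0.66, beside a median of 1.67 over all genes. *Th*, tyrosine hydroxylase, marks dopaminergic amacrine cells in the retina, and was at 25.5 and 6.04 CPM in control, 8.84 and 1.18 CPM with Sox11, and 7.48 and 9.81 CPM with Sox11 K91A. *Calb1*, calbindin, is found in horizontal and amacrine cells and in some RGCs, and was at 234 and 82.2 CPM, 89.7 and 13.0 CPM, and 48.4 and 108 CPM.

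**Figure D4:**
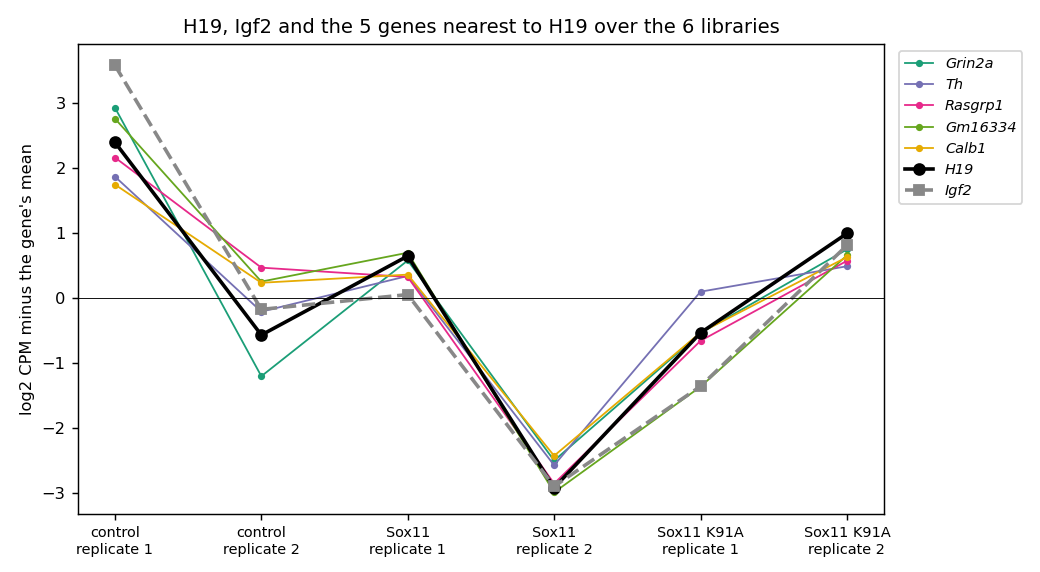
log2 CPM minus each gene's own mean in the 6 libraries for *H19*, *Igf2* and the 5 genes nearest to *H19*. All 7 lines are highest in control replicate 1 and lowest in Sox11 replicate 2.

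Markers of RGCs and of other retinal cells were set beside *H19*. Of all genes tested, 18.4% had the order of replicates of *H19* in every group. The summed level of the 3 horizontal cell markers was 255 and 88.8 CPM in control, 115 and 46.5 CPM with Sox11, and 79.3 and 132 CPM with Sox11 K91A, the same order of replicates within each group as *H19*. That order was the order of *Calb1*, itself chosen above for its nearness to *H19*, and 1 of the 3 genes had it in all groups. *Onecut1* was at 20.3 and 6.41 CPM in control but was higher in replicate 2 with Sox11, at 33.5 CPM, and at 30.1 and 23.4 CPM with Sox11 K91A, the other way round with both viruses, and *Lhx1* stayed under 1 CPM. The 6 amacrine markers summed to 232 and 95.9 CPM in control, 112 and 37.5 CPM with Sox11, and 96.0 and 103 CPM with Sox11 K91A, again in this order. With Sox11 K91A that rested on *Gad2* and *Slc6a9*, since the other 4, *Tfap2a*, *Tfap2b*, *Gad1* and *Slc32a1*, were higher in replicate 1. Among the 10 RGC markers, 4 had the order of *H19* in all groups, *Thy1*, *Pou4f1*, *Slc17a6* and *Nefl*, whereas 5 of 10, such as *Rbpms* at 232 and 242 CPM and *Sncg* at 757 and 915 CPM, were higher in replicate 2 of control. *Thy1*, which encodes the antigen used for panning, was at 725 and 689 CPM in control, 259 and 46.3 CPM with Sox11, and 154 and 312 CPM with Sox11 K91A. Between the groups, the 7 markers of Müller glia and astrocytes summed to 103 to 108 CPM in control and 269 to 314 CPM in the other libraries, nearly all of it *Glul* (glutamine synthetase) at 97.2 to 105 and 267 to 310 CPM, with *Gfap* at 0. The 5 bipolar markers summed to 90.9 to 109 CPM in control and 40.3 to 62.8 CPM in the others, mostly *Prkca*. The part of these cells in the levels of *H19* and the other members was not tested. Markers of fibroblasts, a cell type that expresses *H19* and *Igf2* in the embryo, summed to 6.88 to 21.6 CPM, with the highest sum in Sox11 replicate 2. The part of fibroblasts in these levels was not tested either.

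The levels were also set beside *Sox11* itself, after the values had been seen. In rising order of *Sox11*, the libraries with a Sox11 virus were Sox11 K91A replicate 2, Sox11 replicate 1, Sox11 K91A replicate 1 and Sox11 replicate 2. Over these 4 libraries *H19* fell in the same order, from 571 through 449 and 198 to 38.0 CPM, and *Igf2* from 22.4 through 13.3 and 5.00 to 1.72 CPM. *Igf1r* followed the order of *Sox11* upward, from 38.3 through 43.9 and 55.3 to 63.8 CPM, as did *Igfbp2*, *Insr* and *Igf2r*. *Igf1*, *Igfbp3*, *Igfbp4* and *Igfbp5* followed neither. Of all genes compared, 26.3% followed the order of *Sox11* upward or downward over these libraries, beside 6 of the 10 members. *H19*, included because it varies between replicates, is among the 6, so this count is a description and not a test. Sox11 replicate 2, the library with the most *Sox11*, is also a low-*Xist* library. The 2 control libraries do not continue this order for *H19* and *Igf2*, which were at 193 and 11.3 CPM in control replicate 2 at a *Sox11* level of 332 CPM. The part of the *Sox11* level in these differences was not tested.

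**Figure D5:**
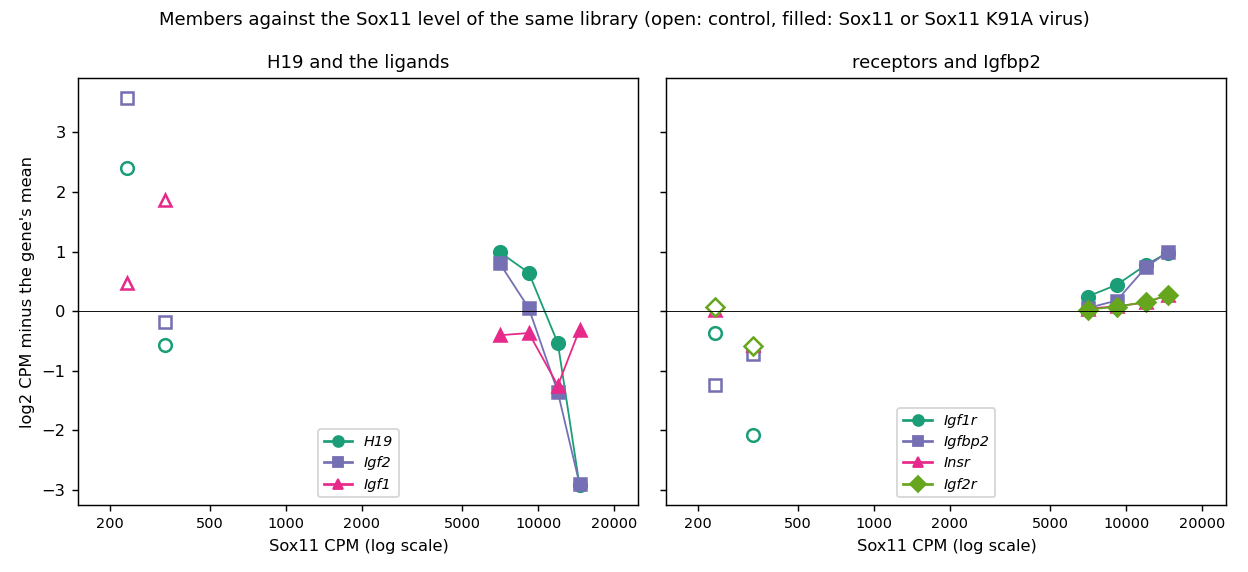
log2 CPM minus each gene's own mean against the *Sox11* level of the same library in CPM on a log axis, with open symbols for control and filled symbols, joined by a line, for the 4 libraries with a Sox11 virus. Over the filled symbols *H19* and *Igf2* decrease and *Igf1r*, *Igfbp2*, *Insr* and *Igf2r* increase with *Sox11*, whereas *Igf1* does neither.

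The order of the members by level was set in TPM. In control it ran from *H19* (mean 808, range 169 to 1448) through *Igf2* (91.1, range 11.0 to 171) and *Igf1* (56.5, range 34.7 to 78.3) to *Igfbp3* (25.5), *Igf2r* (17.95), *Insr* (17.8), *Igfbp2* (16.4), *Igfbp4* (7.53), *Igf1r* (7.39) and *Igfbp5* (0.685). Neighbours were apart, with no overlap of their 2 libraries, between *Igf1* and *Igfbp3*, between *Igfbp2* and *Igfbp4* and between *Igf1r* and *Igfbp5*, and the other neighbours overlapped. With Sox11, *H19* (236) was followed by *Igfbp2* (53.5), *Igf1r* (25.3), *Insr* (25.1), *Igf2r* (24.5), *Igf1* (18.7), *Igfbp3* (16.5), *Igfbp4* (10.3), *Igf2* (8.73) and *Igfbp5* (0.3). The pairs *H19* and *Igfbp2*, *Igf1r* and *Insr*, *Insr* and *Igf2r*, and *Igfbp4* and *Igf2* overlapped. With Sox11 K91A the order was *H19* (367), *Igfbp2* (45.4), *Insr* (23.0), *Igf2r* (22.7), *Igf1r* (21.4), *Igfbp3* (15.3), *Igf2* (13.3), *Igf1* (11.5), *Igfbp4* (7.48) and *Igfbp5* (0.220). The place of *Igf2* in control rests on replicate 1. In control replicate 2, at 11.0 TPM, it was below *Igf1*, *Igfbp3*, *Igfbp2*, *Insr* and *Igf2r*.

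Other genes of the pathway were taken from a list of 46 ligands, binding proteins, proteases, adaptors and kinases, of which 42 were tested. With Sox11, 3 were called higher and 7 lower, 23.8% of those tested, and with Sox11 K91A 2 higher and 4 lower, 14.3%, beside 20.1% and 10.6% of all genes. The median log2 fold change of the list was -0.10 and -0.05, beside 0.01 and 0.02 over all genes. The named members are those with the largest changes. *Htra1*, a secreted protease that cleaves IGF binding proteins, was at 76.5 and 110 CPM in control and between 4.95 and 13.3 CPM in the other libraries, and fell 13.0-fold with Sox11 (adjusted p = 0.0113) and 10.6-fold with Sox11 K91A (adjusted p = 0.0149). *Igfbp6*, a binding protein that prefers IGF2, fell 6.73-fold (adjusted p = 0.0128) and 7.28-fold (adjusted p = 0.0190), from 3.58 to 3.72 CPM in control. *Eif4ebp1*, a repressor of translation under mTOR control, fell 5.01-fold (adjusted p = 0.0138) and 5.45-fold (adjusted p = 0.0199). *Igfbpl1*, an IGF binding protein-like gene, rose 2.66-fold with Sox11 (adjusted p = 0.0225) and 3.06-fold with Sox11 K91A (adjusted p = 0.0251), from 17.2 and 33.7 CPM in control to between 60.1 and 79.7 CPM.

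*Stc1*, an inhibitor of the pappalysin proteases, fell 5.55-fold with Sox11 (adjusted p = 0.0410), and its log2 fold change of -1.68 with Sox11 K91A did not pass (adjusted p = 0.103). *Igf2bp1*, an RNA-binding protein named for *Igf2* mRNA, fell 3.15-fold with Sox11 (adjusted p = 0.0402) at levels under 2.5 CPM, and its log2 fold change of -1.09 with Sox11 K91A did not pass (adjusted p = 0.120). Called with smaller changes with Sox11 were *Ide* and *Grb10*, lower, and *Gab1* and *Pik3ca*, higher, of which the latter pair was not called without the low-*Xist* libraries. The Sox11 call was lost in 8 of 16 alternatives for *Stc1* and in 10 of 16 for *Igf2bp1*, among them the fit without the low-*Xist* libraries for the latter (log2 fold change -1.45, adjusted p = 0.125). Without these libraries *Stc1* was called with both viruses (adjusted p = 0.0384 and 0.0142), *Htra1*, *Igfbp6*, *Eif4ebp1* and *Igfbpl1* held their calls with both, and the list had 10 calls with Sox11 (1 higher and 9 lower) and 19 with Sox11 K91A (4 higher and 15 lower), beside 1630 and 3871 calls over all genes. The kinases *Akt1*, *Akt2* and *Mtor* were not called with either virus, with adjusted p between 0.347 and 0.884.

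The imprinted genes, to which *Igf2* and *H19* belong, were followed in a list of 31 others, of which 29 were tested. With Sox11, 2 were called higher and 7 lower, 31% of those tested, and with Sox11 K91A 2 higher and 6 lower, 27.6%, beside 20.1% and 10.6% of all genes. The median log2 fold change was -0.33 and -0.34, beside 0.01 and 0.02 over all genes. *Dlk1*, a NOTCH ligand-like protein expressed from the paternal chromosome, fell 6.47-fold with Sox11 (adjusted p = 0.0236) and 4.24-fold with Sox11 K91A (adjusted p = 0.0477). It was at 18.9 and 12.5 CPM in control and between 1.39 and 5.52 CPM in the other libraries. *Mirg*, a noncoding RNA of the *Dlk1* cluster, fell 3.00-fold (adjusted p = 0.0172) and 2.22-fold (adjusted p = 0.0420). *Rasgrf1*, a RAS exchange factor, fell 6.31-fold (adjusted p = 0.0143) and 4.51-fold (adjusted p = 0.0262), and *Impact*, which restrains the kinase GCN2, fell 2.24-fold (adjusted p = 0.0169) and 1.96-fold (adjusted p = 0.0337). *Cdkn1c*, the cyclin-dependent kinase inhibitor p57, rose 2.43-fold (adjusted p = 0.0305) and 2.34-fold (adjusted p = 0.0477). *Nnat*, which encodes a small membrane protein of developing brain, rose as well, from 925 and 1091 CPM in control to between 1517 and 1795 CPM. *Airn* is given above, and *Nap1l5* and, with Sox11, *Grb10* fell. *Grb10* is in both lists. The low-*Xist* libraries were also left out, which leaves 1 library each for control and Sox11. The Sox11 calls of *Nnat*, *Dlk1* (log2 fold change -2.19, adjusted p = 0.0543) and *Cdkn1c* (1.03, adjusted p = 0.124) were then lost, and those of *Mirg*, *Rasgrf1* and *Impact* held. The call of *Cdkn1c* was lost in 5 of 16 alternatives with Sox11 and 7 of 16 with Sox11 K91A.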

How the data were processed

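RNA-seq was done on 6 libraries of cultured mouse RGCs, 2 each with control, Sox11 or Sox11 K91A AAV. The authors aligned reads to mm10 with STAR and counted them with RSEM, in versions not given in the sources used here. They deposited 1 table per library with expected counts per gene, not normalized, of which 80.9% to 82.8% of values above 0 were exactly whole as written. The deposited TPM values sum to an equal total in every library. The deposited effective length of each gene was used for 1 alternative order of levels. The annotation, the strand setting and the lane of each library are not given either.

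GENCODE M21 (GRCm38) gave symbols for 42462 of 43346 Ensembl genes, and coordinates. Expected counts were rounded, filtered with filterByExpr (edgeR 4.0.16) over the 3 groups and scaled by TMM, which kept 15747 genes. A single limma-voom fit (limma 3.58.1 in R 4.3.3) held all 6 libraries, p-values were adjusted by the Benjamini-Hochberg method over the whole table, and a gene was called at an adjusted p under 0.05 and a change of more than 1.2-fold. Adjusted p-values are two-sided and come from this fit where no tool is given. The fit was also run on simulated counts. These held no difference between libraries like that in *Xist*, so that run does not bear on how the calls depend on single libraries. CPM use TMM-scaled library sizes. Levels were summarised and plotted with pandas 2.3.3 and matplotlib 3.10.9.

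The members and lists were chosen with earlier results of these data known. Beyond the members, the rule named up to 6 genes of each list with the largest absolute log2 fold change among those called against control, and the 5 genes nearest to *H19*. *Akt1*, *Akt2*, *Mtor*, *Nnat*, the called genes with smaller changes and the order by *Sox11* level were added after the values were seen. Alternatives were the quasi-likelihood test of edgeR, DESeq2 1.42.0, quality weights per sample, size factors of DESeq2, genes with at least 1 count, limma-trend on log2(TPM + 1), a fit with only the 2 groups at hand, a block for the replicate number, a term for the low-*Xist* libraries, leaving these out, and leaving out each library in turn. Promoter windows were searched for exact matches on both strands.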

Additional observations from a re-analysis of the deposited data

How the results depend on the processing

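With 2 libraries a group, the calls depend on single libraries, on the spread that a tool assigns to low counts and on the libraries with low *Xist*. Of 816 log2 fold changes of the 9 tested members and the named list genes under an alternative, 667 kept their direction and call, 97 lost a call, 27 gained one and 25 changed sign. Against control, the sign changed for *Igfbp4* in leave-one-out fits (-0.10 to 0.18 with Sox11, -0.17 to 0.18 with Sox11 K91A) and for *Igf2bp1* with Sox11 on log2(TPM + 1), where it was 0.0252. *H19*, which has no test, changed sign in 5 of 48 values, for Sox11 K91A against control and against Sox11. The cause of each change was not tested.

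For Sox11 against control, 2 members were called. This became 1 with edgeR, on log2(TPM + 1) and without both low-*Xist* libraries, 4 with DESeq2, 0 with sample quality weights, 5 with a term for the low-*Xist* libraries, and 0 (without Sox11 replicate 2) to 5 (without control replicate 1) in leave-one-out fits. *Igf1r* lost its call with edgeR (adjusted p = 0.0647), quality weights (0.0682) and log2(TPM + 1) (0.0599), and *Igfbp2* with quality weights (0.116). Where members gained calls, calls over all genes rose as well, to 4332 with DESeq2 and 4562 with a term for the low-*Xist* libraries. All genes called, 3171, became 979 with quality weights, 1637 with 2 groups in the fit, 1630 without the low-*Xist* libraries, and 0 to 3742 in leave-one-out fits, with 0 again without Sox11 replicate 2.

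For Sox11 K91A against control, the 1 member called became 4 with DESeq2, 0 with 2 groups in the fit, 3 with a term for the low-*Xist* libraries and 3 without them, and 0 to 5 in leave-one-out fits, with 5 only without control replicate 1. All genes called, 1672, became 3144 with DESeq2, 936 on log2(TPM + 1), 2894 with a term for the low-*Xist* libraries, 3871 without them, and 0 to 2529 in leave-one-out fits, with 0 without control replicate 2 or Sox11 K91A replicate 1. The calls in the list of IGF signalling ranged from 0 to 14 with Sox11 and from 0 to 19 with Sox11 K91A, and those in the imprinted list from 0 to 12 and from 0 to 15.

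For Sox11 K91A against Sox11, no member was called under any alternative, and DESeq2 called 2 genes in all. The sign of small differences changed. With a term for the low-*Xist* libraries, *Igf2* was at -0.48, *Igfbp2* at 0.16, *Igfbp3* at 0.14 and *Igfbp4* at 0.12. Without these libraries, *Igf2* was at -0.37, *Igf1r* at 0.0707, *Igf2r* at 0.0161, *Insr* at 0.0114, *Igfbp2* at 0.22 and *Igfbp4* at 0.11. In leave-one-out fits the range was -0.36 to 2.58 for *Igf2*, -0.47 to 0.0705 for *Igf1r*, -0.17 to 0.0186 for *Igf2r*, -0.17 to 0.0140 for *Insr*, -0.59 to 0.22 for *Igfbp2*, -0.21 to 0.14 for *Igfbp4* and -1.28 to 0.31 for *Igfbp5*.

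The replicate numbers give no known pairing. Across genes, the deviations of libraries with the same number from the means of their groups correlated at 0.231 for control and Sox11, -0.0329 for control and Sox11 K91A, and -0.232 for Sox11 and Sox11 K91A. With the replicate number as a block, 3 members and 2679 genes were called with Sox11, *Igf1* among them (adjusted p = 0.0206), and 1 member and 1402 genes with Sox11 K91A. The order of members by level was the same in CPM per kb of effective length, and the replicate differences of *H19* kept their direction and size on log2(TPM + 1) and without TMM.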

Other observations

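The neighbours of *H19* and *Igf2* were examined after *Th* had appeared among the genes nearest to *H19*, since *Th* lies on the same chromosome at chr7:142892752-142931128. Within 500 kb of *H19* or *Igf2*, 10 other genes were tested. Of these, *Igf2os* and *Th* were in the same order of replicates as *H19* in each group, with replicate 1 higher in control and Sox11 and replicate 2 higher with Sox11 K91A. That is 2 of 10, *Th* among them, which had been picked for its nearness to *H19*, and 18.4% of all genes tested had this order. *Igf2os* was at 9.66 and 0.649 CPM in control, at 3.42 and 0 CPM with Sox11 and at 1.43 and 7.20 CPM with Sox11 K91A. Its reads may not have been told apart from those of *Igf2*, which it overlaps, so its order may not be separate from that of *Igf2*. The other genes tested in this window did not have this order, and all of them lie outside the stretch from *H19* to *Th*. *Mrpl23*, a mitochondrial ribosomal protein gene next to *H19*, was at 17.9 and 30.6 CPM in control and between 19.3 and 22.3 CPM in the other libraries. *Ctsd*, a lysosomal protease, was at 480 and 579 CPM in control, 289 and 237 CPM with Sox11, and 268 and 323 CPM with Sox11 K91A. *Cd81*, a tetraspanin, was at 193 and 303 CPM in control and between 172 and 183 CPM in the other libraries.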
